A study of Rattus norvegicus with 21 samples.

Results

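Macrophages and microglia sorted from the rat brain in the set of libraries titled 7D were compared to show which differences between these cell populations remained late after experimental stroke. The comparison was defined by the library titles: 4 libraries titled MO (macrophages) against 4 titled Mg (microglia), 8 of the 21 libraries in all, with equal replicate numbers taken as pairs. All animals were adult rats whose strain label reads Winstar. In both groups the middle cerebral artery had been occluded for 90 min with a filament and then reperfused (MCAO). Values of 2 further kinds are given beside this comparison: 4 libraries of sham microglia with the 7D prefix, from rats whose external carotid artery was tied off with no filament passed to the brain, and 3 macrophage and 3 microglia libraries after MCAO from a set whose treatment field reads 24 h (the 24h set). The sham libraries have a treatment field that names a PBS injection, while the protocol describes the operation.

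Cells came from the injured side of the perfused brain and were sorted by flow cytometry, with microglia defined as CD11b+ with low CD45 and blood-derived macrophages as CD11b+ with high CD45. The labels of the 7D set contradict each other. All 12 of its libraries carry a treatment field of 24 h, and the 4 titled MO carry the source name and the low-CD45 gate of microglia, so the time of 7 days and the gate of the macrophages rest on the titles. In the 24h set, the gate fields of microglia replicate 3 and macrophage replicate 3 are the reverse of their titles. The deposited files name transcripts by Ensembl identifiers without gene symbols, apart from 2 rows named Chi3l1 and Nos2. The labelled cell types could therefore not be checked against their marker genes. The labels call the replicates biological without tying them to animals, and the spread behind each p-value is that between these libraries, which may be technical in part.

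Microglia are the resident macrophages of the brain. They are seeded before birth and maintain themselves by local division. Blood monocytes enter the ischaemic tissue through damaged vessels and there become macrophages that engulf debris and can release inflammatory or repair factors. CD45 is a phosphatase on all white blood cells, and its lower level on microglia is the usual means of separating them from infiltrating cells, although activated microglia can raise it. With time in the tissue, infiltrated macrophages are known to take on some features of their surroundings, which is why a late comparison of these populations differs in kind from an early one.

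The 8 libraries held 11336284 to 15401910 expected counts, the estimated number of reads assigned to each transcript, and between 16102 and 16522 transcripts were detected in each. Depth was alike in macrophages (11444200 to 15401910) and microglia (11336284 to 14333865), with implied mean fragments of 180 to 193 nt. Libraries of the same group differed by more than sampling noise in each case (chi-square divided by its degrees of freedom 16.3 to 37.2). Levels are given as CPM, counts scaled by the library total after TMM normalisation.

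Cell population was the main axis of variation among the 8 libraries. The first principal component of their log2 levels carried 45.9% of the variance and placed the 4 microglia libraries between -41.26 and -26.97 and the 4 macrophage libraries between 25.77 and 44.85, with no overlap. The second component, with 18.6%, ordered the replicate numbers in the same way in both populations: replicates 1 and 2 lay at 28.43 and 20.87 in microglia and at 18.74 and 12.46 in macrophages, while replicates 3 and 4 lay at -30.12 and -8.676 in microglia and at -26.64 and -15.05 in macrophages. Same-numbered libraries of both populations thus lay on the same side. Across transcripts, which are not independent replicates, log2 levels correlated at a mean of 0.973 between microglia libraries, 0.974 between macrophage libraries and 0.949 between the populations. Libraries of different populations with the same number correlated at 0.952 to 0.965.

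**Figure D1:**
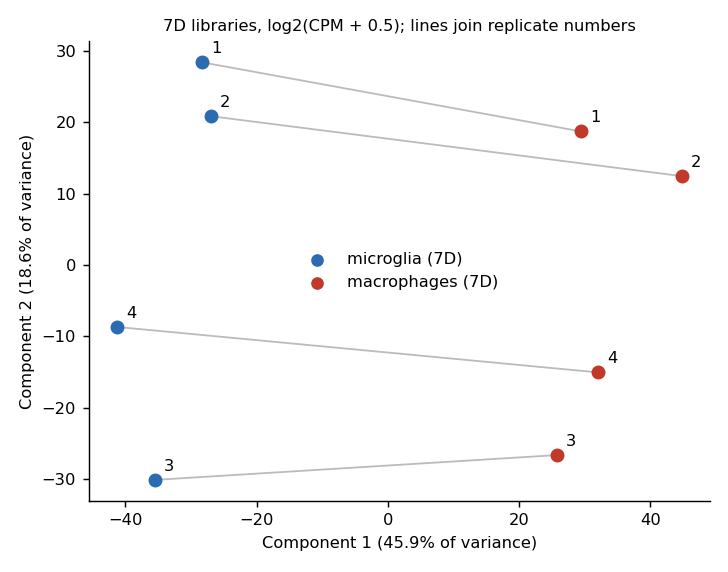
First (x axis) and second (y axis) principal components of log2(CPM + 0.5) over the transcripts tested, 1 point per library of the 7D set, labelled by replicate number, with lines joining equal numbers. Microglia lie at -26.97 or below and macrophages at 25.77 or above on the first component, and replicates 1 and 2 of both lie above replicates 3 and 4 on the second.

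The macrophages differed from the microglia in 33.6% of what could be tested, mostly by less than 1.5-fold. Of 12707 features, 2125 were higher in macrophages (16.7%) and 2150 were lower (16.9%) at an adjusted p under 0.05 (edgeR quasi-likelihood test with replicate number as a block, Benjamini-Hochberg adjustment); a feature past this threshold is described as called. The median log2 fold change was 0.45 among those called higher and -0.36 among those called lower, against -0.01 over all features tested. In sorted bulk populations, fewer cells of a type and less RNA per cell cannot be told apart. Without the block, 1197 were called higher and 844 lower, of which 1195 and 842 were among the calls made with it. Leaving out pair 1, 2 or 4 gave 2831, 2605 or 2660 calls in all, and leaving out pair 3 gave 4325.

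With the block, the counts in both directions were alike, but the sizes were not. The balance of counts depends on the fit: without the block 1197 were higher and 844 lower. With the block and a correction for transcript length, 2306 were higher and 1755 lower. At least 2-fold differences were called for 564 features higher in macrophages (4.44%) and for 127 lower (0.999%). Differences under 1.5-fold made up 1272 of the higher and 1731 of the lower calls, and those of 1.5- to 2-fold numbered 289 and 292. Above that the directions parted: 283 higher against 115 lower at 2- to 4-fold, 111 against 7 at 4- to 8-fold, and 170 against 5 beyond 8-fold. Without pair 4, 79 were at least 2-fold lower, and without the block 72. The largest called difference was 10.79 on the log2 scale in favour of macrophages, and the largest in the other direction was -3.82. With RLE scaling, 565 features were called at least 2-fold higher and 124 lower, and with upper-quartile scaling 572 and 119. DESeq2, which changes the test as well as the scaling, gave 550 and 99. With TMM, RLE, upper-quartile scaling and DESeq2, the median log2 fold change over all features lay between -0.0131 and 0.000103. Scaling itself sets where the fold changes centre, so this median cannot test the difference in sizes. Of all calls under these settings, each with the block, 49.7% to 53.1% were higher in macrophages, a share that does not bear on the sizes.

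**Figure D2:**
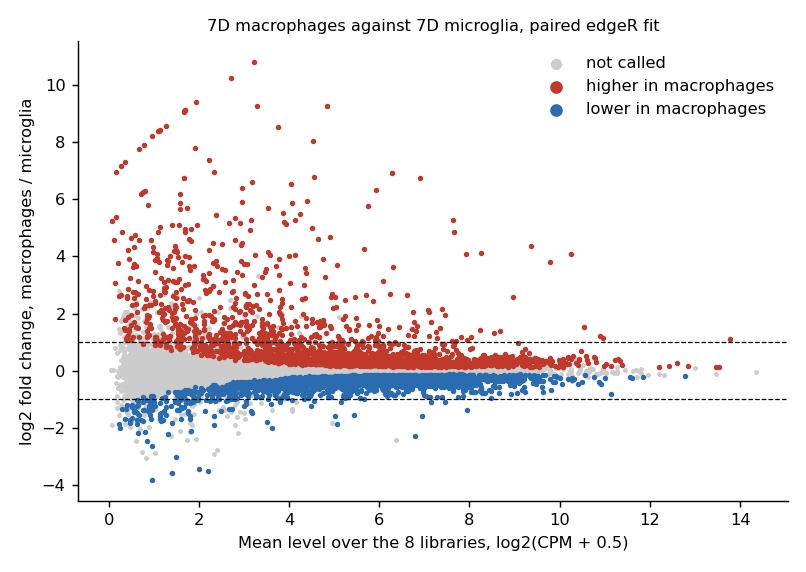
Each point is 1 feature, with its mean level over the 8 libraries on the x axis, as log2(CPM + 0.5), and its macrophage over microglia log2 fold change on the y axis; dashed lines mark 2-fold. Called features beyond 2-fold number 564 above the upper line and 127 below the lower one, and the points above 4 have no counterpart below -4.

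The call rate rose with level, and the 2-fold differences were most frequent at low levels. Among 345 features with a mean under 1 CPM, 15.9% were called, among 3743 between 1 and 10 CPM 19.9%, among 6555 between 10 and 100 CPM 36.3%, and among 2064 above 100 CPM 53.1%. In the 1 to 10 CPM class, 322 were called higher by at least 2-fold and 95 lower by as much. Among abundant features, above 100 CPM, the counts were 36 and 5, so the excess of large differences in favour of macrophages held in each level class.

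Transcript length moved with direction. The median length was 1737 nt for transcripts called higher in macrophages, 2783 nt for those called lower and 2059 nt for all tested. In the shortest of 4 length classes of nearly equal number (156 to 1342 nt), 23.5% were called higher and 6.26% lower, and in the longest (3163 to 25698 nt) 12.9% and 26.9%. The median log2 fold change of the shortest class was between 0.06 and 0.15 in the 4 pairs. With each library smoothed over length, 2306 were called higher and 1755 lower, and 1900 and 1634 of the original calls remained. Of the large differences, 557 of the 564 higher and 117 of the 127 lower stayed called.

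The pairs showed the same direction with unequal sizes. All 4 pairs had the direction of the fit in 2107 of the 2125 features called higher and 2098 of the 2150 called lower, against 6440 of all 12707 tested (50.7%) with 4 equal signs. The ranges of both groups did not overlap in 1418 of those called higher (66.7%) and 1015 of those called lower (47.2%), against 21.9% of all tested. Pairs 2 and 4 held the larger differences: the median log2 ratio of the 564 features at least 2-fold higher was 1.81 and 1.99 there, and 1.40 and 1.47 in pairs 1 and 3. A ratio of at least 2-fold was seen for 408, 499, 435 and 510 of the 564 in pairs 1 to 4, and 263 of them had their largest ratio in pair 4. The 127 features at least 2-fold lower showed no such spread, with pair medians of -1.12, -1.0, -1.02 and -1.04. All called features, the 564 and 127 included, were chosen on the same libraries. Their pair directions, overlaps and pair values therefore describe them and test nothing.

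**Figure D3:**
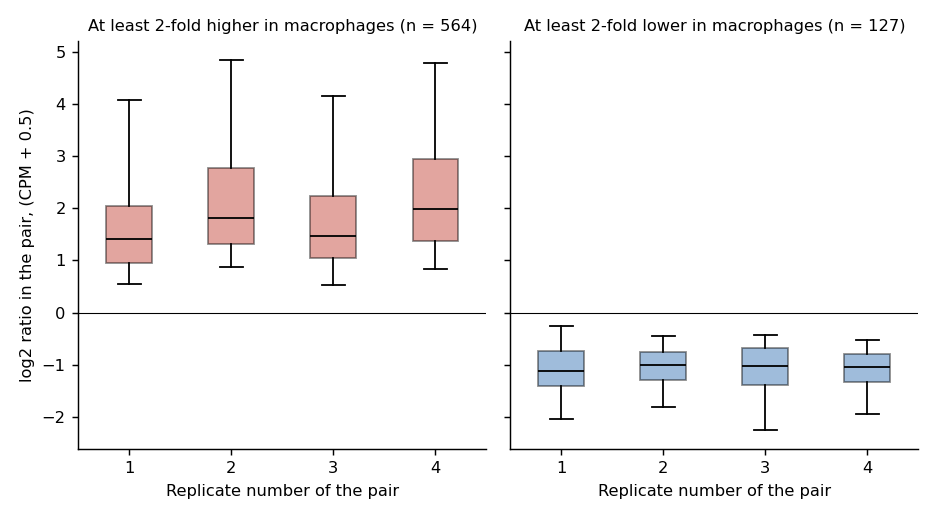
Log2 ratio of macrophages to microglia within each replicate pair, on CPM + 0.5, for the 564 features called higher by at least 2-fold (left) and the 127 called lower by at least 2-fold (right); boxes give the middle 50% with the median, whiskers the 5th to 95th percentile. Pair medians on the left run from 1.40 to 1.99 and on the right from -1.12 to -1.0.

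Transcripts at least 2-fold higher in macrophages were a small part of either transcriptome. They held 4.67 ± 0.555% of the counts (SD, n = 4; range 4.02% to 5.37%) in macrophages and 1.67 ± 0.233% (n = 4; 1.37% to 1.90%) in microglia. Sham microglia of the same set, which did not enter the fit, held 1.69 ± 0.156% (n = 4), a mean within the range of the MCAO microglia. The 127 features at least 2-fold lower held 0.0728 ± 0.00662% in macrophages, 0.193 ± 0.0163% in MCAO microglia and 0.311 ± 0.0406% in sham microglia (n = 4 each), so these were highest in sham cells. Median levels were 8.81 CPM in macrophages, 1.62 in microglia and 2.59 in sham for the 564, and 1.23, 3.22 and 5.44 CPM for the 127. Over all features tested the medians were 22.6, 22.1 and 21.6 CPM.

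Among called transcripts whose groups did not overlap and whose mean log2 CPM reached 3, the largest difference was that of ENSRNOT00000025308, a transcript of 1488 nt. Its level was 138.2, 178.4, 147.3 and 152.4 CPM in macrophage replicates 1 to 4 and 0.479, 2.21, 1.81 and 0.711 CPM in the microglia. Every macrophage library stood far above every microglia library, and sham microglia lay between, at 56.5 ± 12.6 CPM (SD, n = 4) against 17.1 ± 4.16 CPM (n = 3) in sham microglia of the 24h set. The fit gave a log2 fold change of 6.90 with an SE of 0.20 (edgeR adjusted p = 1.7e-05), 120-fold. At 24 h by label, the macrophages were at 371 ± 107 CPM (n = 3) and the microglia at 12.4 ± 7.44 CPM (n = 3), 4.88 apart on the log2 scale (edgeR adjusted p = 0.00055). The estimated difference was larger in the 7D set by 2.04 ± 0.62 (interaction, edgeR adjusted p = 0.034), with lower levels in both populations. The transcript was chosen for its 7D difference, and the 7D libraries also enter the interaction. This favours a larger 7D value, so the interaction describes the transcript and tests nothing.

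ENSRNOT00000068407, of 4223 nt, had the largest late difference after it among transcripts called in the same direction in the 24h set. Macrophages held 262.7, 387, 175 and 127.9 CPM and microglia 2.72, 2.52, 1.36 and 1.85 CPM, with no overlap. The fitted difference was 6.76 ± 0.14 on the log2 scale (SE, edgeR adjusted p = 4.8e-06), 108-fold. Sham microglia of the 7D set were at 35.0 ± 6.76 CPM (n = 4), above the MCAO microglia, but sham microglia of the 24h set were at 2.07 ± 0.749 CPM (n = 3), so the sets differed for this transcript apart from the occlusion. Macrophages of the 24h set were at 393 ± 144 CPM and its microglia at 35.7 ± 23.7 CPM (n = 3 each), a log2 difference of 3.44 (edgeR adjusted p = 0.0035). The 7D difference exceeded it by 3.29 ± 0.70 (interaction, edgeR adjusted p = 0.0071). ENSRNOT00000068407 was likewise chosen for its 7D difference, which favours a larger 7D value, so this interaction too is descriptive.

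Under the same limits on level and overlap, ENSRNOT00000019052, of 1056 nt, had the largest difference among transcripts lower in macrophages. Outside these limits, called values reached -3.82. Its levels were 44.38, 31.29, 33.88 and 41.2 CPM in macrophages and 174.8, 150.7, 175.1 and 228.6 CPM in microglia, with no overlap and with pair log2 ratios of -1.97, -2.25, -2.35 and -2.46. The log2 fold change was -2.28 ± 0.09 (SE, edgeR adjusted p = 4.6e-05), 4.87-fold lower. Sham microglia held 308 ± 105 CPM (n = 4). The 24h set had it at 22.8 ± 6.49 CPM in macrophages and 86.6 ± 46.2 CPM in microglia (n = 3 each), with a log2 fold change of -1.94 (edgeR adjusted p = 0.0088). The interaction was -0.35 ± 0.44 (edgeR adjusted p = 0.61), so no change in this difference between the sets was detected.

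ENSRNOT00000004956, of 4765 nt, was next in that direction among transcripts also lower in the 24h set. Macrophages held 6.69, 5.67, 5.72 and 1.56 CPM and microglia 26.61, 21.2, 13.56 and 13.23 CPM. The groups did not overlap, and macrophage replicate 4 was the lowest library. The log2 fold change was -2.0 ± 0.25 (SE, edgeR adjusted p = 0.0019), 4-fold lower. Unlike the transcript before it, it was scarce in sham microglia, at 1.61 ± 0.702 CPM (n = 4), so here the MCAO microglia stood above both other groups. The 24h log2 fold change was -1.36 (edgeR adjusted p = 0.048), from 2.13 ± 0.664 CPM in macrophages and 5.48 ± 3.04 CPM in microglia (n = 3 each). The interaction was -0.67 ± 0.57 (edgeR adjusted p = 0.43).

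Chi3l1 encodes a secreted chitinase-like protein that binds chitin without cleaving it and is released by macrophages, neutrophils and astrocytes in inflamed tissue. It was at 4.71, 8.35, 8.08 and 36.96 CPM in macrophages (62, 103, 89 and 522 expected counts) and at 2.40, 2.29, 3.80 and 1.99 CPM in microglia (30, 29, 42 and 28 expected counts). The groups did not overlap, and macrophage replicate 4 was far above the other 3. The log2 fold change was 2.07 ± 0.53 (SE, edgeR adjusted p = 0.026), 4.2-fold, and pair log2 ratios were 0.85, 1.67, 1.00 and 3.91. Without replicate 4 it was 1.30 (edgeR adjusted p = 0.017), and without replicate 2 the call was lost at an unchanged direction (2.16, edgeR adjusted p = 0.081). Sham microglia, at 7.78 to 16.97 CPM, exceeded all 4 MCAO microglia libraries. Macrophages of the 24h set held 125.6 ± 39.4 CPM and microglia 22.7 ± 23.0 CPM (n = 3 each), 2.45 apart on the log2 scale (edgeR adjusted p = 0.027). The levels were higher in that set in both populations, while the difference between the populations was not shown to change (interaction -0.29 ± 1.05, edgeR adjusted p = 0.87).

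Nos2 encodes inducible nitric oxide synthase, which makes nitric oxide from arginine and is switched on in rodent macrophages by inflammatory signals. Its values were 0, 1.30, 0.363 and 25.1 CPM in macrophages (0, 15.57, 3.53 and 355.15 expected counts) and 0.240, 0, 0 and 0.284 CPM in microglia (3, 0, 0 and 4 expected counts), where 3 counts correspond to 0.212 to 0.272 CPM in the 8 libraries. The high value belonged to macrophage replicate 4 alone, the same library that was high for Chi3l1. Replicate 1 went the other way, and the groups overlapped. The fit gave 5.09 ± 1.27 on the log2 scale (SE, edgeR adjusted p = 0.022), a size that rests on few microglia counts, and 2.25 without replicate 4 (edgeR adjusted p = 0.39), where the call was lost. It was also lost without replicate 2 (4.96, edgeR adjusted p = 0.078) and without the block (5.49, edgeR adjusted p = 0.084). Sham microglia held 0.724 to 4.34 CPM, above all 4 MCAO microglia libraries. The 24h macrophages were at 20.0 ± 13.8 CPM and microglia at 4.20 ± 4.56 CPM (n = 3 each), a difference that did not pass the threshold (2.22, edgeR adjusted p = 0.086).

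**Figure D4:**
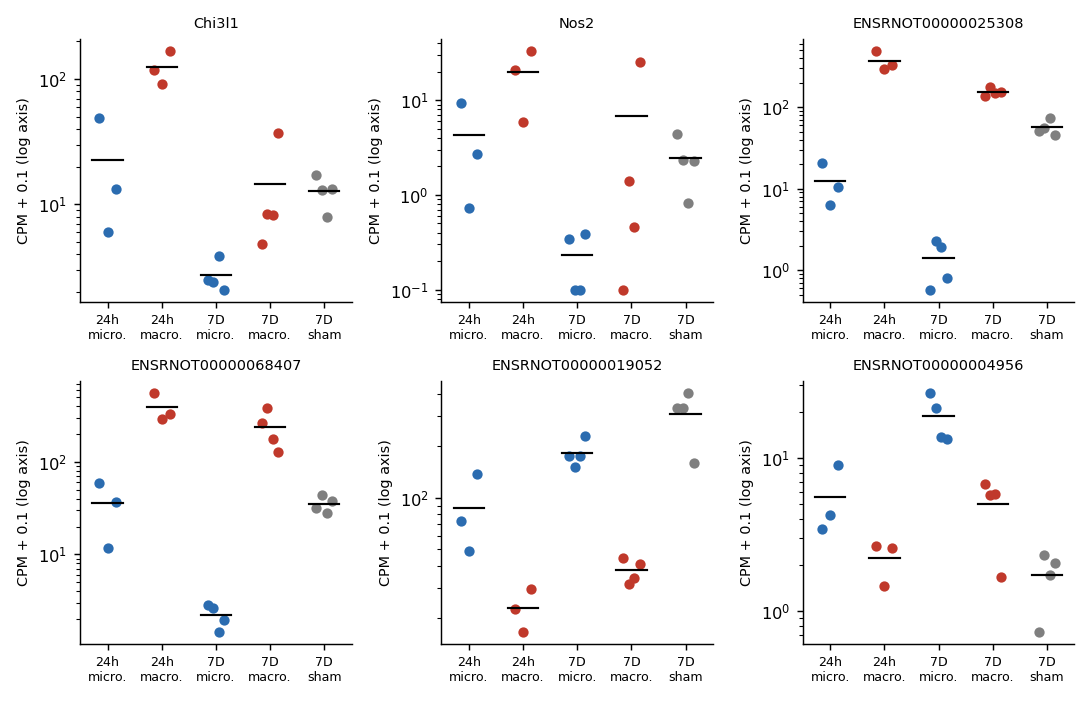
Levels of Chi3l1, Nos2 and 4 transcripts by library, as CPM + 0.1 on a log axis that differs between panels; points are libraries, black lines group means, and colours separate microglia (blue), macrophages (red) and sham microglia of the 7D set (grey). The 7D macrophage and microglia points do not overlap except for Nos2, and 1 macrophage library stands apart for Chi3l1 and Nos2, at 36.96 and 25.1 CPM.

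The early differences were taken from the 24h set to find which of them remained. There, 12586 features were tested, of which 2890 were higher in macrophages (23.0%) and 2737 lower (21.7%). Of 12178 features tested in both sets, 2722 were higher and 2699 lower early. Late, 1348 of the early higher features were again called higher, 49.5% of the early list and 64.7% of the 2084 late higher calls, and 1068 of the early lower ones were again called lower, 39.6% of the early list and 50.4% of the 2119 late lower calls. Over all 12178, 17.1% were called higher and 17.4% lower late. The sets share no library. They differ in number, depth, implied fragment length and pairing, and the 24h fit had no block. A call made in one set and not in the other therefore does not show a change. Without the block in the 7D set, 907 remained higher and 452 lower. Without 7D pair 2 or 4, 675 or 698 remained lower. Without microglia replicate 3 and macrophage replicate 3 of the 24h set, whose label fields disagree, 810 and 528 remained.

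Large early differences persisted more in one direction than in the other. The 1027 features at least 2-fold higher in macrophages early, with a median log2 fold change of 1.99, had a late median of 0.87, and 95.1% of them were still above 0. Late calls were made for 735 of them in the same direction (71.6%) and for 6 in the opposite one. The 1234 features at least 2-fold lower early, with a median of -1.77, had a late median of -0.27, and 16.9% of them lay above 0. Of these, 526 were again called lower (42.6%) and 57 were called higher. These shares depend on the fit: without the block 53.8% of the first list and 19.2% of the second were called again. Across the alternatives, the late medians stayed between 0.80 and 1.03 for the first list and 0.25 to 0.29 below 0 for the second. The same held at 4-fold: 509 features went from a median of 3.42 to 1.82, with 432 called again (84.9%), and 492 went from -2.72 to -0.40, with 231 called again (47.0%).

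**Figure D5:**
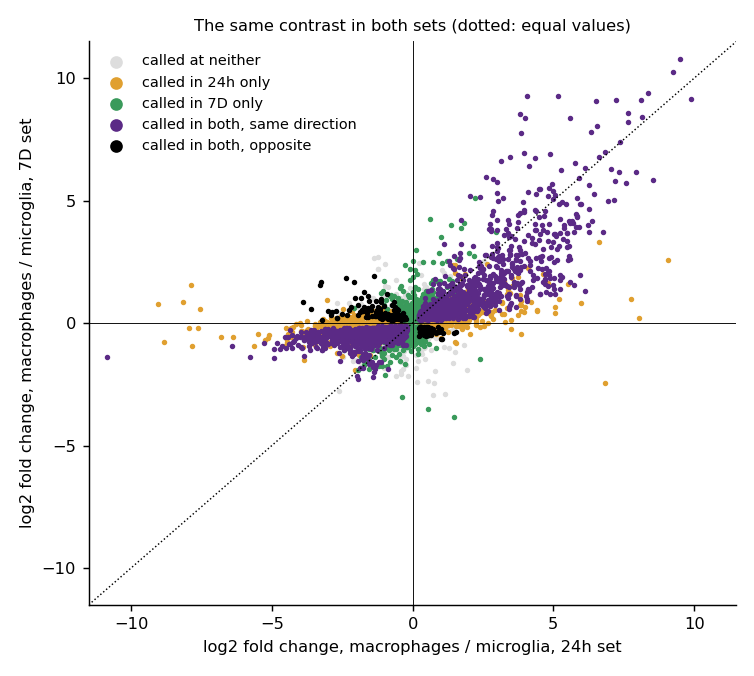
Macrophage over microglia log2 fold change of each feature tested in both sets, with the 24h set on the x axis and the 7D set on the y axis; colours give where a feature was called and the dotted line marks equal values. Features high in macrophages in the 24h set spread upward (late median 0.87 for those at least 2-fold higher), and those at least 2-fold lower lie near the horizontal axis (late median -0.27).

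The change in the difference was tested as an interaction over the 14 libraries of both sets. Among 13511 features, 1955 had a more positive macrophage minus microglia difference in the 7D set (14.5%) and 1752 a more negative one (13%). Of the 1234 features at least 2-fold lower early, 996 had moved toward the positive side and 0 further down (80.7% called). Of the 1027 at least 2-fold higher early, 555 had moved down and 15 up (55.5% called). These lists were chosen on the 24h libraries that also enter the interaction, which favours a smaller late value in both, so the shares describe the lists; the late medians above come from libraries the choice did not use. Microglia of the 7D set were at a median of 20.1 CPM and macrophages at 18.2 CPM for the early lower list, against 5.30 and 13.3 CPM for the early higher list.

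A core of large differences was present in both sets. At least 2-fold higher in macrophages at both were 434 features, with medians of 3.39 early and 2.22 late. For 145 of them the interaction was called, 130 toward a smaller and 15 toward a larger value, the latter including ENSRNOT00000025308 and ENSRNOT00000068407. At least 2-fold lower at both were 58 features, with medians of -1.91 and -1.26. The interaction was called for 14 of the 58, each toward 0. Both lists were chosen on the libraries that enter the interaction, so these interaction counts describe the lists and test nothing. Read from the late side, 446 of the 527 features at least 2-fold higher late and tested early had been called higher early (84.6%), and 11 had been called lower. Of 102 at least 2-fold lower late, 59 had been called lower early (57.8%) and 0 higher. Over all 12178 features tested in both sets, 2722 had been called higher early and 2699 lower. Most of the large late differences in favour of macrophages were therefore already called early.

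Features called in only 1 of the sets were selected by those calls, so their medians and interaction counts describe the lists and test nothing. The 1289 early higher features without a late call had a median of 0.59 early and 0.08 late, and the interaction was called for 804 of them. The 1519 early lower ones had medians of -0.86 and -0.09, with 1019 called. Called late and not early were 624 higher, with medians of 0.15 early and 0.34 late, and 966 lower, with medians of -0.10 and -0.33; 70 of the former and 43 of the latter differed by at least 2-fold late. These counts moved with the libraries used. Without 7D pair 1, 2 or 4 they were 358, 317 or 346 higher and 513, 525 or 447 lower. Without the 24h libraries whose label fields disagree they were 1225 and 1573, and without macrophage replicate 1 of the 24h set 941 were higher. For 125 and 261 of these the interaction was called, so for the rest no change between the sets was shown. In all, 85 features were called higher early and lower late, and 112 lower early and higher late, each with a called interaction. Opposite calls in the libraries that enter the interaction favour that outcome, so it adds no test. The 112 had moved from a median of -1.01 to 0.34, and their late levels were 74.6 CPM in macrophages and 57.6 CPM in microglia, against 59.4 CPM in sham. Without the block in either set, 57 features in place of 197 had opposite calls, without the 24h libraries whose label fields disagree 72, without 7D pair 1, 2 or 4 between 103 and 108, and without 24h macrophage replicate 1 or 3 113 or 127.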

How the data were processed

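Per the submitters' processing notes, reads of the strand-specific polyA libraries passed through bcl2fastq, TopHat2 and RSEM with build rn5; their versions and the annotation are not given in the sources used here. The deposited expected counts, 1 library per file, are the authors' RSEM estimates of reads per transcript and were rounded before testing. The TPM and FPKM columns that the authors also deposited went into no test. RSEM divides reads shared by isoforms or near-identical copies: 22.8% to 24.0% of detected transcripts in the 8 libraries had a count that was not whole (tolerance 0.001). The rows Chi3l1 and Nos2 have values displaced by 2 columns and were read from there; it is unknown if transcripts also count their reads.

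Of 30404 identifiers, 0 matched a table of 47357 rat genes (GRCr8), so the 22 gene lists (195 different genes), cell type markers included, could not be applied and no coordinates are given. Named were Chi3l1, Nos2 and 4 identifiers: among features called late whose groups did not overlap and whose mean log2 CPM reached 3, the largest difference in each direction and, after these, the largest in each direction among those called alike in the 24h set. The comparison, lists and rules were chosen with earlier results of these data known.

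edgeR 4.0.16 in R 4.3.3 was used (quasi-likelihood F-test, TMM, filterByExpr with a minimum count of 10 and total of 15, 2-sided, Benjamini-Hochberg adjustment over all features, called under 0.05). The 7D fit used 8 libraries with the replicate number as a block, the 24h fit 6 libraries without one, and the interaction 14 libraries with the block in the 7D set only. Each approximate standard error is the size of the log2 fold change over the square root of F. Pair ratios used CPM + 0.5. Same-numbered 7D macrophages and microglia departed from their group means together (across transcripts r = 0.40 to 0.46, other combinations -0.34 to 0.083), as did those of the 24h set (0.19 to 0.25, others -0.18 to -0.025). Departures from a group mean cancel within the group, so a positive match itself pushes the other combinations down. The pairing comes from the numbers in the titles and this check, not from animals named in the labels. For the 24h set a block was run as an alternative only.

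On simulated counts for the 7D comparison (12548 features), 68.7% of 2-fold and 95.9% of 4-fold changes were recovered, with 4.1% false calls. For the 24h comparison (12387 features) the shares were 50% and 91.8%, and for the interaction (13241 features) 23% and 85%. Simulated counts carried an effect shared by same-numbered libraries, and in the 7D comparison only 99 features were changed 2-fold and 98 4-fold. The 4.1% therefore assumes that the pairing holds and is not the error rate of the real calls. Alternatives were other fits (no block, all 12 libraries of the 7D set, DESeq2 1.42.0, limma 3.58.1 voom), scalings, filters, unrounded counts, left-out libraries and, added after the calls were seen to differ with length, a correction for transcript length.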

Additional observations from a re-analysis of the deposited data

Results flagged for a closer look

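Macrophage replicate 4 of the 7D set was set apart from its group by its gap to the other 3 libraries for both genes named in the files, with 37.0 CPM of Chi3l1 (the others at 4.71 to 8.35) and 25.1 CPM of Nos2 (the others at 0 to 1.30). The rule (Dixon's gap test on CPM) was applied to Chi3l1, Nos2 and the 4 identifiers in each 7D group, sham included. For normally distributed values, it sets apart a library by chance in about 1 in 20 groups. That rate was not checked for these CPM values, which need not be normal. Macrophage replicate 4 was also the lowest macrophage library for ENSRNOT00000004956 and ENSRNOT00000068407 and lay within the range of the others for ENSRNOT00000025308 and ENSRNOT00000019052.

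The macrophage minus microglia difference was larger in the 7D set than in the 24h set for ENSRNOT00000025308, by 2.04 on the log2 scale (edgeR interaction, adjusted p = 0.034), and for ENSRNOT00000068407, by 3.29 (adjusted p = 0.0071). Both transcripts were chosen for their large 7D differences, which favours a larger 7D value, so these interactions describe them. Both were lower in 7D than in 24h microglia. Over all features, edgeR's interaction was called as more positive in the 7D set for 1955 and as more negative for 1752. Set, sequencing depth, implied fragment length and title time go together here and cannot be told apart. Implied mean fragments were 157 to 169 nt in the 24h macrophage and microglia libraries and 180 to 193 nt in those of the 7D set.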

How the results depend on the processing

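Chi3l1, Nos2 and the 4 identifiers kept their direction under every alternative run. The balance of call counts did not keep its side. Slightly more were lower than higher in the main fit (2150 against 2125) and with limma-voom (2246 against 2199). More were higher than lower without the block (1197 against 844) and with DESeq2 (1773 against 1564). The replicate block set the number of calls: without it 2041 features were called late (1197 higher, 844 lower, 72 of them at least 2-fold lower) and 1359 differences remained late (452 lower), with 19.2% of the early 2-fold lower list, 234 late-only higher, 346 late-only lower and 57 opposite calls. With all 12 libraries of the 7D set and no block, 1472 were called (872 higher, 600 lower, 78 at least 2-fold lower). A minimum count of 30 left 56 at least 2-fold lower. Leaving out 1 pair or 1 library gave 1102 to 4325 calls (722 to 2181 higher, 380 to 2144 lower, 357 to 582 at least 2-fold higher, 45 to 113 at least 2-fold lower); the lowest came without macrophage replicate 2 and without the block. With the block, leaving out pairs 1, 2, 3 and 4 gave 2831, 2605, 4325 and 2660. Differences that remained late and lower numbered 675 to 1058 with a library or pair left out, the fewest without pair 2 (698 without pair 4), and 2508 remained in all with a block in the 24h set as well.

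Without both 24h libraries whose label fields disagree, 2439 features were called in the 24h set, 2330 in the interaction, and 1338 differences remained (810 higher, 528 lower); fewer libraries were then fitted. Nos2 missed the threshold in 13 of 22 alternatives, among them 5.49 without the block, 5.50 with all 12 libraries and 4.72 with DESeq2. With a pair or library left out it ran from 1.93 (missed) to 6.40 (passed), and the adjusted p over all alternatives from 0.0015 to 0.39. Chi3l1 missed it in 5 of 22, at 2.16 to 2.65. With a pair or library left out it ran from 1.30 to 2.76, both of which passed, and the adjusted p over all alternatives from 0.0017 to 0.10. The 4 identifiers stayed past it in all 22. The cause of each of these shifts was not tested. At this depth 3 counts are 0.212 to 0.272 CPM, which limits Nos2 in microglia.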

Other observations

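Some transcripts of the 7D set were scarce in 1 population only. Of the 2125 called higher in macrophages, among 12707 features tested, 128 were under 1 CPM in all 4 microglia libraries and at 1 CPM or more in all 4 macrophage libraries. Of these, 39 were also under 1 CPM in all 4 sham libraries. The reverse pattern was seen for 18 of the 2150 called lower. The low-count filter keeps a transcript that is high in only 1 population, which favours such patterns. In 17 of the transcripts called higher, all 4 microglia libraries were at 0, and in 0 of those called lower were all 4 macrophage libraries at 0.

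The relation of calls to transcript length was present in the 24h set too. There, 28.6% of the shortest class were called higher in macrophages and 12.7% lower, against 18.9% and 30.1% of the longest. After smoothing over length, the shares in the 7D set were 16.9% and 9.47% in the shortest class and 20.5% and 16.7% in the longest. Within the 7D set the lower calls were longer than the higher ones at each level, with medians of 3189 and 1750 nt above 100 CPM and 2406 and 1738 nt between 1 and 10 CPM.

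The row of Chi3l1 carries a mean transcript length weighted by the estimated share of its isoforms. It was 1712 nt in macrophage replicates 1, 2 and 4 and 1702.82 nt in replicate 3 of the 7D set, and 1681.43, 1658, 1698.6 and 1658 nt in the microglia, which rest on 28 to 42 expected counts. The groups did not overlap. Sham microglia of the 7D set ran from 1679.94 to 1712 nt and so reached into the ranges of both groups. In the 24h set all 3 microglia libraries were at 1712 nt, and sham microglia ran from 1693.34 to 1708.56 nt.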
